A study of Homo sapiens with 3 samples.

Results

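Genes of growth receptors and caveolae were examined for the binding of the acetyltransferases p300 and CBP in MDA-MB-231 cells, namely the receptor tyrosine kinase genes EGFR, MET, AXL and EPHA2 and the caveolin genes CAV1 and CAV2. A peak belonged to this group when its centre lay in the gene body of 1 of these 6 genes in hg19 or within 100 kb of its transcription start site (TSS), and each peak was counted once. The rule gave 141 of the 122221 peaks in the 2 deposited lists, 84 of 82901 peaks in control cells and 57 of 39320 peaks in cells given siRNA against Fra-1. CAV2, CAV1 and MET are neighbours on chromosome 7 and their windows share peaks, so the 6 genes form 4 loci: EGFR, CAV2-CAV1-MET, AXL and EPHA2.

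MDA-MB-231 is an established human breast cancer line of the triple-negative, basal B type. The cells were transfected for 72 h with 4.5 nM of either a control siRNA (siCTL) or a mix of 3 siRNAs directed against the transcription factor Fra-1 (siFra-1), were fixed for 7 min according to the labels (the methods give a shorter time for ChIP), and chromatin was immunoprecipitated with an antibody against p300/CBP. Apart from the siRNA the labels give both groups the same line and handling, and each condition is 1 sequencing library made from pooled immunoprecipitations of a single cell line. There is therefore no replicate spread and no test between conditions, the intervals given are 95% intervals that cover counting error only, and a difference between the 2 lists cannot be told apart from a difference between the 2 libraries. The lists give the position of each peak and no height or read number, so the width of a peak is the only measure of its extent, the sequencing depth is unknown, and the loss of Fra-1 itself cannot be read from them.

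Receptor tyrosine kinases span the cell membrane, bind a secreted or cell-bound ligand outside the cell and phosphorylate tyrosines inside it, which feeds growth, survival and migration pathways. Caveolins are the coat proteins of caveolae, small pits of the membrane in which several receptors and signalling proteins gather, and EGFR, AXL, EPHA2 and the caveolins are typically expressed in breast cancer cells of the basal type. The related proteins p300 and CBP acetylate histones and other proteins at active enhancers and promoters, to which transcription factors bring them. Fra-1 is a Fos family protein that pairs with Jun proteins into AP-1, a factor that binds the motif TGAGTCA, which reads TGACTCA on the other strand.

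Sequences from the GRCh37 assembly, plus strand, are given first for the peaks on which the results turn. For the CAV2-CAV1-MET and AXL loci the centre of the widest siCTL peak that a siFra-1 peak overlapped is shown, 300 bases each. Capitals mark an AP-1 motif or a match to TGTGGT, the letters bound by RUNX factors, which read ACCACA on the other strand. The letters GGAATG of TEAD factors were searched as well, and so was the cAMP-responsive element with the letters TGACGTCA, in each case on both strands. The AXL stretch held 1 AP-1 motif and the CAV2-CAV1-MET stretch 1 RUNX motif.
CAV2-CAV1-MET, upstream of CAV2, chr7:116083127-116083426: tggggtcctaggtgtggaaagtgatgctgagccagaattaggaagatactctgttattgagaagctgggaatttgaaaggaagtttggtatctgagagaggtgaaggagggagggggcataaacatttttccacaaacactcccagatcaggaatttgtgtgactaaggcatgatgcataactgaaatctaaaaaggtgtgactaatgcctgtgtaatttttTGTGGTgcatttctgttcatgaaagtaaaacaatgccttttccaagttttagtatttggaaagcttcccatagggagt
AXL intron 4, chr19:41731727-41732026: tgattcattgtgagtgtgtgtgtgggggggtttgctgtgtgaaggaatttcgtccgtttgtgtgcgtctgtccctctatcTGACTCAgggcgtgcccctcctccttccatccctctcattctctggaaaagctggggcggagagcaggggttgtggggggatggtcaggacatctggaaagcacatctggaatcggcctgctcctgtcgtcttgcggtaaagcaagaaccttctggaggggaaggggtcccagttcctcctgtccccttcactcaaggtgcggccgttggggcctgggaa
Peaks without a partner in the other list are shown for comparison. In siCTL the widest were 200 bp wide, 2 at EPHA2 and 1 at AXL, of which the first by position is shown. In siFra-1 the widest lay at EPHA2 and was 500 bp wide, of which the central 300 bases are shown.
EPHA2, siCTL only, chr1:16415752-16415951: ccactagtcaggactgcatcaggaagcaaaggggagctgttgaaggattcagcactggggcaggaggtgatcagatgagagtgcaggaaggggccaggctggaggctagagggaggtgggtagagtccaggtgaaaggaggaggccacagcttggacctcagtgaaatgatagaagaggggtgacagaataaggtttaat
EPHA2 intron 3, siFra-1 only, chr1:16468152-16468451: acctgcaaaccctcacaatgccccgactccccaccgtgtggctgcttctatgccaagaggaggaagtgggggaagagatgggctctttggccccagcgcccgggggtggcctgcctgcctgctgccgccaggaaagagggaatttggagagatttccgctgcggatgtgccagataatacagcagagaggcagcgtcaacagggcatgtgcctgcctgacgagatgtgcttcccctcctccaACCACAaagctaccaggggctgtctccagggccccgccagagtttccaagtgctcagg

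Peaks at the 6 genes were fewer in siFra-1 and wider. Of the siCTL peaks 48 were 100 bp wide, the smallest width in the lists, 18 were 150 to 200 bp and 18 were 250 bp and over, which are called wide here. Of the siFra-1 peaks 22, 8 and 27 fell into these classes. The ratio of siFra-1 to siCTL peaks was thus 0.679 (0.476 to 0.961) over all widths, 0.458 (0.263 to 0.774) at 100 bp and 1.5 (0.796 to 2.89) for wide peaks. Over the rest of the series these ratios were 0.474, 0.398 and 1.64. The last 2 lie inside the intervals of the member ratios and the first just outside, and in the class of 150 to 200 bp the ratio was 0.444 (0.167 to 1.07) against 0.577. Within each width class the difference between these loci and the rest was thus not detectable beyond counting error.

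**Figure D1:**
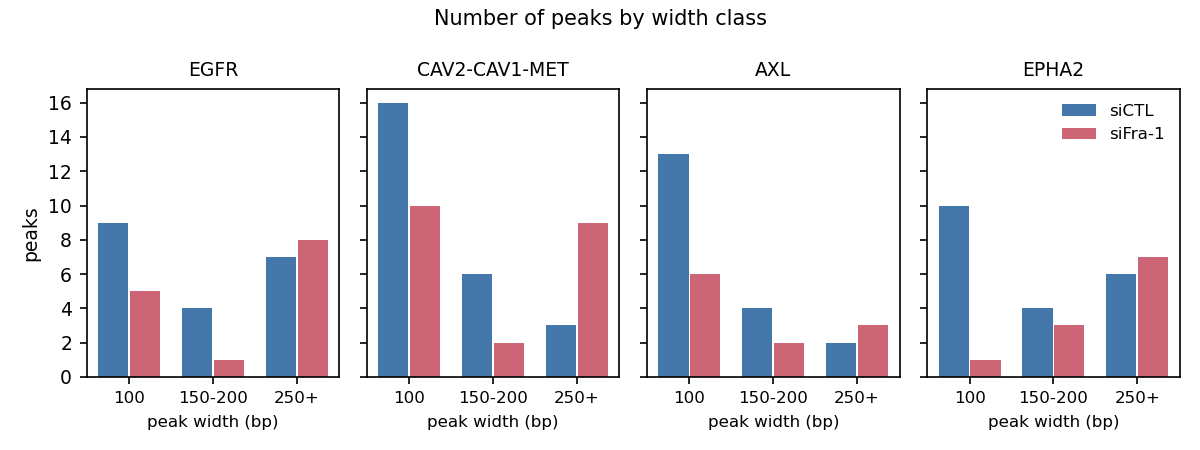
Number of p300/CBP peaks (y axis) by peak width in bp (x axis) at the 4 loci, in siCTL (blue) and siFra-1 (red), 1 library each. In all 4 loci siFra-1 had fewer peaks of 100 bp and more peaks of 250 bp and over.

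All 4 loci showed this split. EGFR had 20 siCTL and 14 siFra-1 peaks, of which 7 and 8 were wide. CAV2-CAV1-MET had 25 and 21, of which 3 and 9 were wide, the largest gain in wide peaks among the 4 loci. AXL had 19 and 11, of which 2 and 3 were wide, and EPHA2 had 20 and 11, of which 6 and 7 were wide. Each of these wide ratios has an interval that includes 1, the largest being 3.00 (0.749 to 17.2) at CAV2-CAV1-MET. Summed over the loci, siCTL peaks covered 16.9 kb and siFra-1 peaks 17.2 kb, while over the rest of the series they covered 9940 and 6270 kb.

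Wide peaks were frequent at these genes in both conditions. In siCTL 18 of 84 member peaks were wide (21.4%, 14.0 to 31.3), against 4.41% of the whole list. In siFra-1 27 of 57 were wide (47.4%, 35.0 to 60.1), against 15.2%. Set against the other peaks of each list, the differences were 17.0 percentage points (9.61 to 27) and 32.2 points (19.8 to 44.9). Per length the loci held 13.8 wide siCTL peaks and 20.7 wide siFra-1 peaks per Mb, where the whole series had 1.18 and 1.93. Chromosome 7, which carries 2 of the loci, had 0.785 and 1.28. Chromosome 1 with EPHA2 had 1.38 and 2.12, and chromosome 19 with AXL had 2.23 and 3.04. EPHA2 was the densest of the 4 with 30.0 and 35.0 wide peaks per Mb and CAV2-CAV1-MET the sparsest with 4.91 and 14.7.

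Member peaks were more often found in both lists than other peaks. Of the siCTL peaks 33 of 84 were overlapped by a siFra-1 peak by at least 1 bp (39.3%, 29.5 to 50), against 9.56% over the whole siCTL list. The difference from the other siCTL peaks was 29.8 points (20 to 40.5). Of the siFra-1 peaks 28 of 57 were overlapped (49.1%, 36.6 to 61.7), against 19.1%, a difference of 30.0 points (17.5 to 42.6). Part of this gap moves with width, as overlap was more frequent among wide peaks. With the overlap share that the other peaks had in each width class, 21 of the siCTL and 22.1 of the siFra-1 member peaks would have been overlapped.

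Among wide peaks the loci stood close to the rest. All 18 wide siCTL peaks (82.4 to 100%) met a siFra-1 peak, against 85.0% of the wide siCTL peaks of the series. Of the wide siFra-1 peaks 21 of 27 (77.8%, 59.2 to 89.4) met a siCTL peak, against 68.2%. The interval of both differences includes 0 (-2.56 to 16.3 and -8.91 to 21.3 points). Among peaks of 100 bp, 9 of 48 siCTL peaks were overlapped (18.8%, 10.2 to 31.9) where 3.78% of the other peaks of that width were. Of those 9, 6 lay at CAV2-CAV1-MET. Some of the 9 met a siFra-1 peak that another siCTL peak met too, as at the CAV1 promoter, so they are not independent. The share was 3 of 22 for siFra-1 peaks of 100 bp (13.6%, 4.75 to 33.3), against 6.56%. For peaks of 150 to 200 bp it was 33.3% (16.3 to 56.3) against 21.7% in siCTL and 4 of 8 (21.5 to 78.5%) against 28.1% in siFra-1. These last 3 intervals include the value of the rest.

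**Figure D2:**
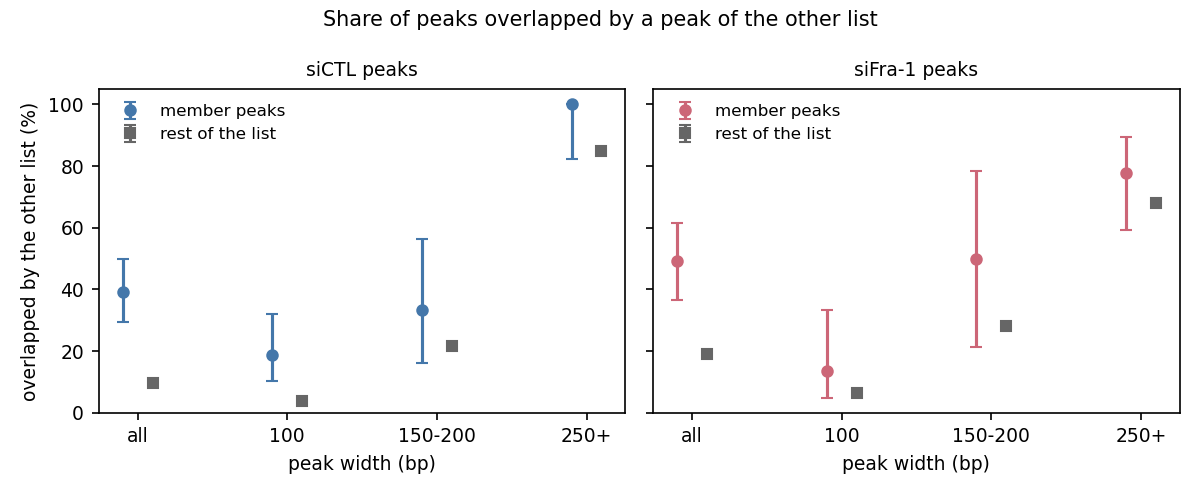
Share of peaks overlapped by the other list (y axis, %) by peak width in bp (x axis), for member peaks (circles) and the rest of the list (squares), siCTL on the left and siFra-1 on the right, with Wilson 95% intervals. The share rises with width in both groups, and the member shares of 39.3% and 49.1% over all widths lie above the 9.53% and 19.1% of the rest.

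Joining peaks that share bases gave 108 sites: 28 shared, 51 in siCTL only (47.2%) and 29 in siFra-1 only (26.9%). Over the series 7292 of 114062 sites were shared, 65.7% were in siCTL only and 27.9% in siFra-1 only. At the shared sites the summed width was larger in siFra-1 at 16, smaller at 6 and equal at 6, with a median difference of 50 bp (0 to 100). The median over all shared sites of the series was also 50 bp. Of the sites, 27 held a wide peak in at least 1 list, 21 of them shared and 6 in siFra-1 only, and 0 were in siCTL only (Wilson upper bound 12.5%). Over the series 65.4% of wide sites were shared, 26.9% were in siFra-1 only and 7.72% in siCTL only, so the 0 lies within counting error of the series. Of the 21, 13 were wider in siFra-1 (61.9%, 40.9 to 79.2), 5 narrower and 3 equal, against 66.2% wider over the series. Their median gain was 50 bp (0 to 150), against 100 bp over the series. The peaks of the 4 loci are drawn by their distance from the start of the gene in the locus maps.

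**Figure D3:**
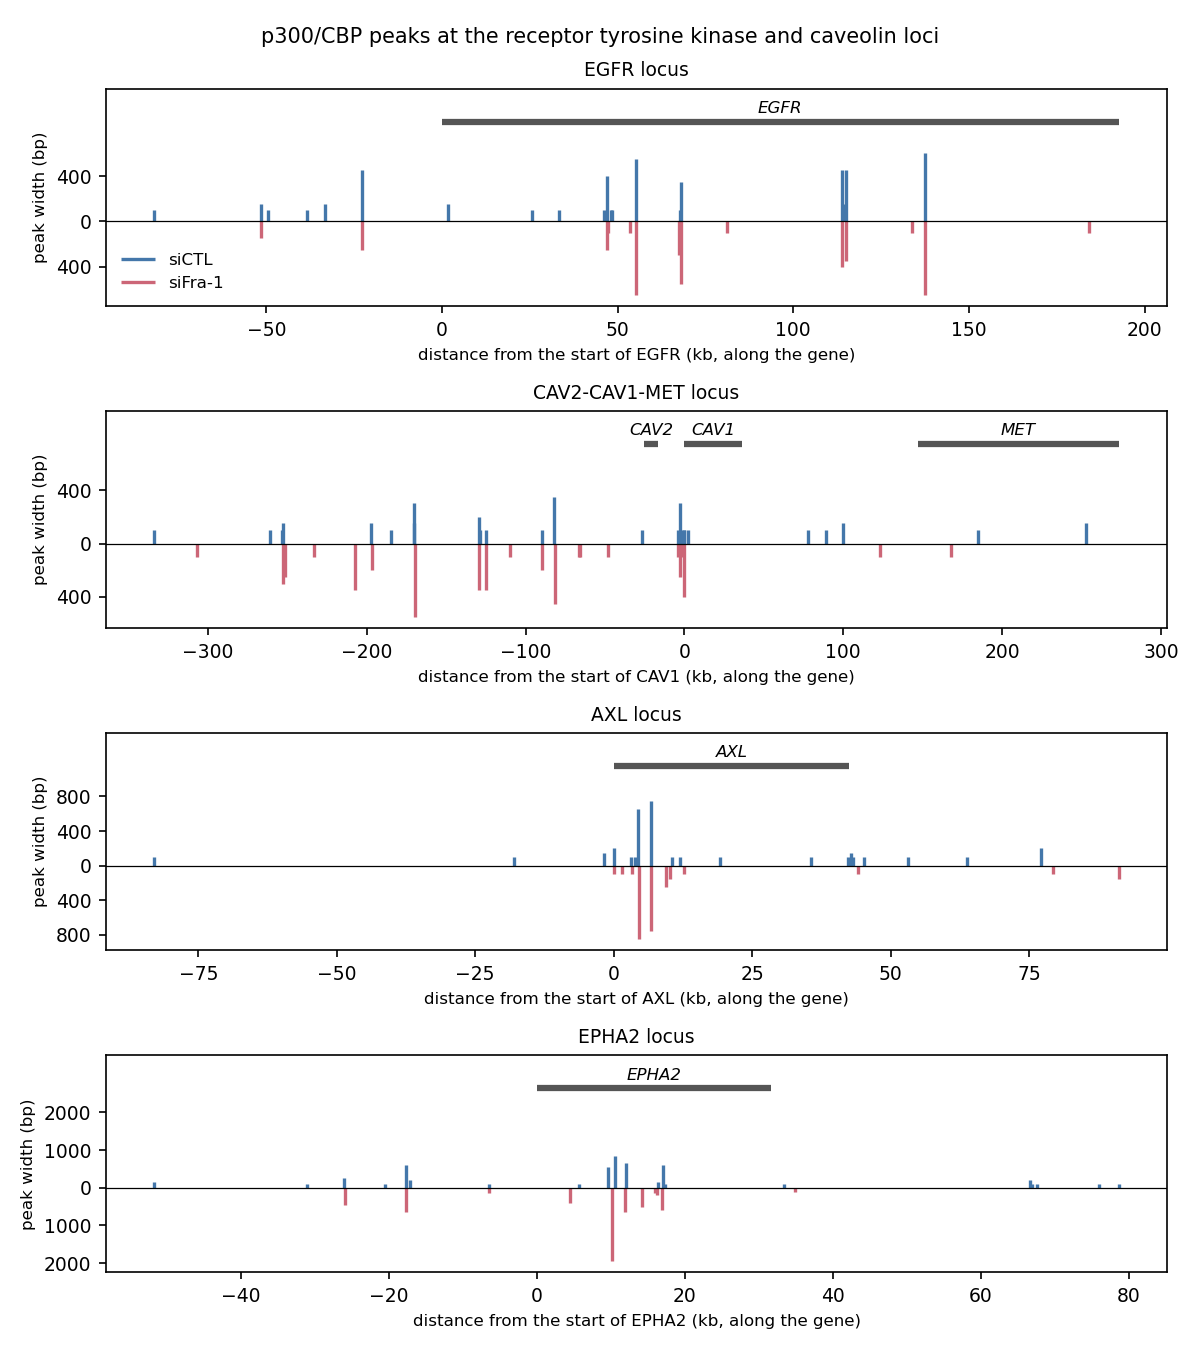
Position of each member peak by distance from the gene start in kb (x axis, along the gene's own strand) and its width in bp (y axis), siCTL above the line and siFra-1 below it; grey bars are the gene bodies, for CAV2 that of the canonical transcript. The scales differ between panels. Wide peaks sit inside EGFR, AXL and EPHA2 and upstream of CAV2 and CAV1, and the stretch around MET holds none.

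EGFR, the receptor of the epidermal growth factor family of ligands, had 8 wide sites spread over 160 kb. Of these 6 lay in intron 1, 1 in intron 8 and 1 upstream of the gene, and its promoter had no peak within 3 kb centred on the TSS in either list. Only 35 of 20163 protein-coding genes (0.174%) had at least 7 wide siCTL peaks by the same rule, and 76 (0.377%) had at least 8 wide siFra-1 peaks.

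In contrast to the direction of most wide sites of the series, EGFR had 4 shared wide sites that were narrower in siFra-1 and 3 that were wider. The upstream site at chr7:55063652-55064101 (-22.8 kb from the TSS) was 450 bp wide in siCTL and 250 bp in siFra-1. The site at chr7:55133402-55133801 (46.9 kb) measured 400 and 250 bp. The pair at chr7:55200452-55200901 and chr7:55201352-55201801 (114 and 115 kb) measured 450 bp each in siCTL and 400 and 350 bp in siFra-1. These 4 sites lost between 50 and 200 bp. The other sites gained. The site at chr7:55141502-55142151 (55.1 kb) measured 550 and 650 bp. The site at chr7:55154402-55154951 (68.0 kb) was made of 2 siCTL peaks of 100 and 350 bp and 1 siFra-1 peak of 550 bp. Right beside it, chr7:55154052-55154351 held 300 bp in siFra-1 only. The intron 8 site at chr7:55223852-55224501 (137 kb) measured 600 and 650 bp, and its siCTL peak was the widest at EGFR in that list. It is named by its centre, and its interval also holds the exon after that intron. A narrow shared site of 150 bp in both lists lay at chr7:55035102-55035301 (-51.5 kb). The median change over the 7 wide shared sites was -50 bp (-200 to 100), an interval that includes the 100 bp of the series, so a difference between EGFR and the series was not detectable.

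AXL, a receptor of the TAM family that binds GAS6, had 3 wide sites, all in intron 4 and within 4.95 kb of each other. The site at chr19:41729202-41730051 (4.50 kb from the TSS) was 650 bp wide in siCTL and 850 bp in siFra-1. The next at chr19:41731502-41732251 (6.75 kb) was 750 bp in both, with the same start and end. Another at chr19:41734452-41734701 (9.45 kb) was 250 bp wide in siFra-1 only. The 2 shared sites held the widest peaks of the locus in both lists, and 0.174% of all siCTL peaks were 750 bp or wider. At the TSS itself, exon 1 carried 200 bp in siCTL and 100 bp in siFra-1 at chr19:41725052-41725251. A further shared site of 100 bp in each list lay at chr19:41728302-41728451 in intron 4. Unshared peaks numbered 15 in siCTL and 7 in siFra-1, the 250 bp peak in intron 4 included, and were 100 to 250 bp wide. Some of them lay in CYP2S1, HNRNPUL1 and CCDC97, whose starts also lie in the window.

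EPHA2, the receptor of membrane-bound ephrin-A ligands, carried the widest site of the group. In intron 3, 10.2 kb downstream of the TSS, 2 siCTL peaks of 850 bp (chr1:16471552-16472401) and 550 bp (chr1:16472702-16473251) were covered by 1 siFra-1 peak of 1950 bp (chr1:16471402-16473351). Of all 39320 siFra-1 peaks only 1 was wider, at 2250 bp. In siCTL 63 peaks were wider than the 850 bp one.

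Intron 3 of EPHA2 held 3 more wide sites. Widths were equal at chr1:16465252-16465901 (17.0 kb, 600 bp in both lists) and at chr1:16470202-16470901 (12 kb, 650 bp in both). Between them, chr1:16468052-16468551 (14.3 kb) held 500 bp in siFra-1 only. Intron 1 had 400 bp in siFra-1 only at chr1:16477902-16478301 (4.46 kb). Upstream of the gene, the site at chr1:16499852-16500551 (-17.6 kb) measured 600 bp in siCTL and 650 bp in siFra-1, and that at chr1:16508302-16508751 (-26.0 kb) measured 250 and 450 bp. None of the shared EPHA2 sites was narrower in siFra-1. Of these 7 sites 5 were wider (71.4%, 35.9 to 91.8), an interval that includes the 52.3% of all shared sites of the series. Narrow shared sites lay at chr1:16466052-16466351 (150 and 200 bp) and chr1:16488902-16489051 (100 and 150 bp). Peaks of 100 bp numbered 10 in siCTL and 1 in siFra-1 at this gene. As for EGFR, the window of 3 kb centred on the TSS was empty in both lists.

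**Figure D4:**
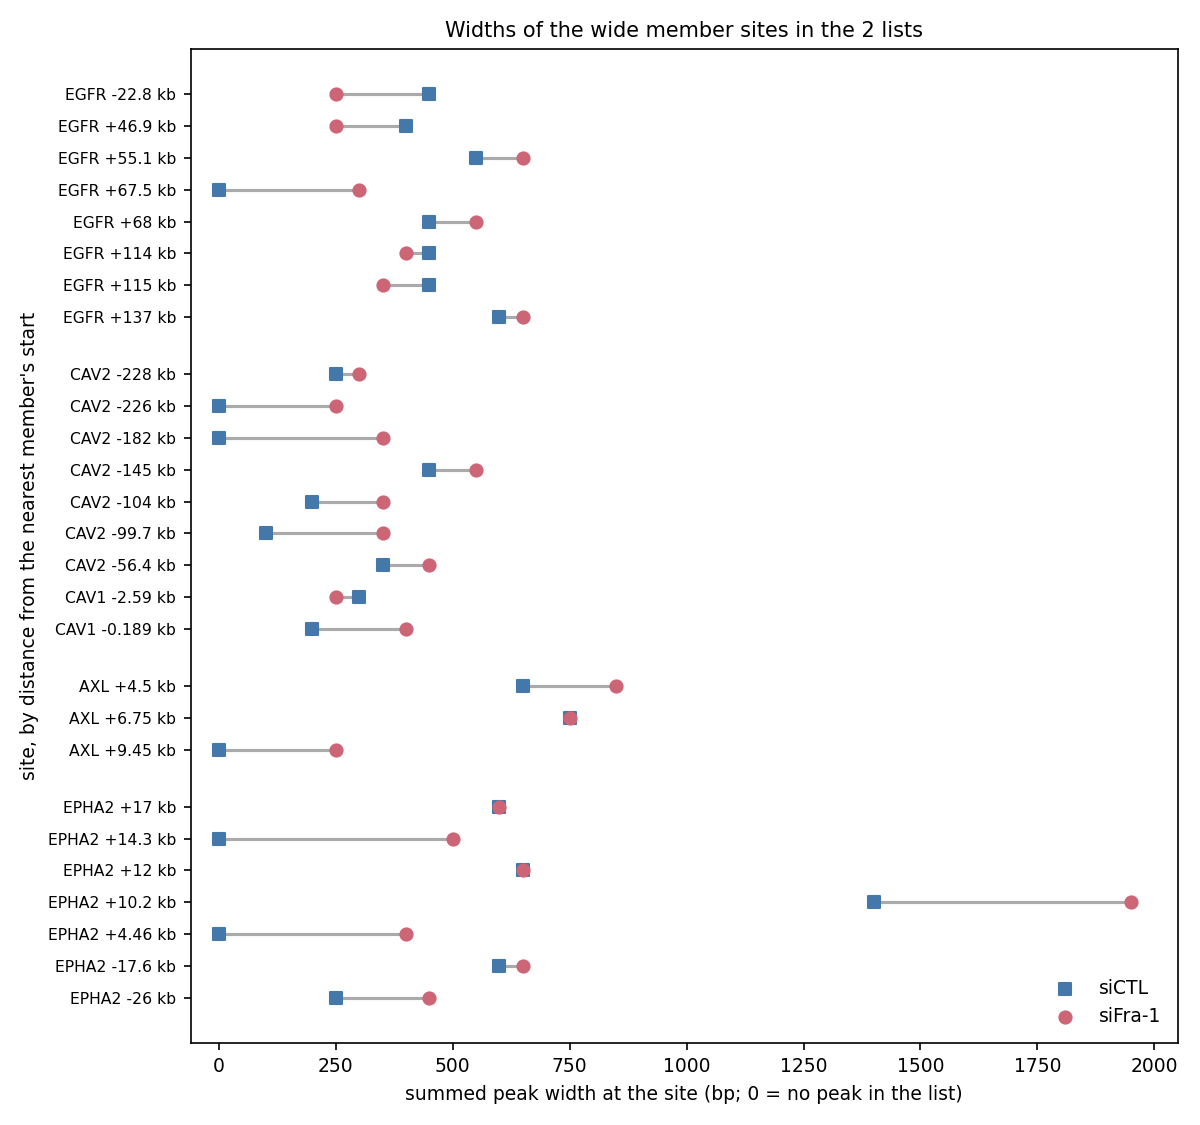
Summed peak width in bp (x axis) at each of the 27 wide member sites (y axis, named by the nearest member gene and the distance from its start in kb) in siCTL (squares) and siFra-1 (circles), joined by a line; 0 means no peak in that list. The 1400 and 1950 bp of the EPHA2 site stand far to the right, and 4 of the EGFR sites have the circle on the left.

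CAV1 encodes the main coat protein of caveolae and CAV2 its partner. At the TSS of CAV1, chr7:116164702-116165101 (-0.189 kb) held 2 siCTL peaks of 100 bp and 1 siFra-1 peak of 400 bp. This was the only promoter among the 6 with a wide peak. Upstream of it, chr7:116162352-116162651 (-2.59 kb) measured 300 bp in siCTL and 250 bp in siFra-1, and chr7:116161252-116161351 (-3.79 kb) was 100 bp wide in both.

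The other 7 wide sites of this locus lay upstream of CAV2, between -228 and -56.4 kb from the start of its canonical transcript. They fall in introns of 2 genes that GENCODE lists without a symbol, ENSG00000243243 and ENSG00000237813, and 5 of them lie inside the stretch that GENCODE also gives to CAV2, since its CAV2 gene begins at position 115927434, far upstream of the canonical start at 116139792. All 5 shared sites among these had a larger summed width in siFra-1. Over the locus 6 of 7 shared wide sites were wider (85.7%, 48.7 to 97.4), an interval that includes the 66.2% of the series. The site at chr7:116039902-116040251 (-99.7 kb) went from 100 to 350 bp and that at chr7:116035502-116035901 (-104 kb) from 200 to 350 bp. The site at chr7:115994852-115995501 (-145 kb) went from 450 bp, in 2 siCTL peaks, to 550 bp. That at chr7:116083102-116083601 (-56.4 kb) went from 350 to 450 bp. At chr7:115912002-115912401 (-228 kb) the 250 bp of siCTL were 2 peaks of 100 and 150 bp with a gap between them. The siFra-1 peak of 300 bp bridged this gap but ended before the second siCTL peak did. The gain there is thus one of summed width only. The remaining 2, chr7:115913452-115913701 (250 bp) and chr7:115957352-115957701 (350 bp), were in siFra-1 only. A narrow shared site at chr7:116075252-116075451 measured 100 and 200 bp. The start of another coding gene, TES, also lies in this locus, and 1 siFra-1 peak of 100 bp lay in its intron 1. Which gene the sites upstream of CAV2 act on was not tested. In the window of CAV2, 2 siCTL and 7 siFra-1 peaks were wide, the largest such gain among the 6 genes, which rests on sites far upstream. With the canonical transcripts in place of the gene bounds, an alternative chosen after the data were seen, the window of CAV2 held 2 wide siCTL and 4 wide siFra-1 peaks, close to the gain of 1 at EGFR, AXL, EPHA2 and CAV1, and the 6 genes together had 17 wide siCTL and 22 wide siFra-1 peaks, a ratio of 1.29 (0.656 to 2.60).

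MET, the receptor of hepatocyte growth factor, had no wide peak in either list. Its window of 226 kb had 5 siCTL and 2 siFra-1 peaks, all 100 or 150 bp wide, and none was shared. In siCTL 2 of them lay in introns 2 and 16 of MET and 3 in intron 2 of the upstream noncoding gene COMETT, while in siFra-1 1 lay in intron 1 of MET and 1 in COMETT. A gene without wide peaks is common, since 66.6% of protein-coding genes had none in either list.

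At the wide sites of these genes AP-1 motifs were common. Of the 27 wide sites 14 held at least 1 (51.9%, 34 to 69.3), against 33.7% of all 7098 wide sites of the series. The difference from the other sites was 18.2 points (0.349 to 35.7). The member sites were also longer, with a median span of 450 bp against 400 bp over all wide sites, which leaves more room for a motif. Per kb the member sites held 1.16 AP-1 motifs, against 0.979 over all wide sites. Windows moved by 2 kb held one in 5 of 27 (18.5%, 8.18 to 36.7) and in 7.41% of those of the series. Of these 5 moved windows 3, 1 at AXL and 2 at EPHA2, run into a neighbouring wide site. For 1 of the 2 at EPHA2 that neighbouring site itself held no AP-1 motif. The difference in share rested on EGFR, as without that locus the share was 7 of 19 (36.8%, 19.1 to 59.0).

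At EGFR 7 of 8 wide sites held exactly 1 AP-1 motif (87.5%, 52.9 to 97.8). All 7 read TGAGTCA on the plus strand, the strand of the gene. They are shown with 10 bases on each side and the motif in capitals, because each is the only AP-1 motif of its site.
EGFR -22.8 kb, chr7:55063681-55063707: aaacaggatcTGAGTCAgtcttcagcc
EGFR 46.9 kb, chr7:55133544-55133570: caagtgaagcTGAGTCAtatggcctct
EGFR 55.1 kb, chr7:55141891-55141917: ctgctcactcTGAGTCAcggtgaaaat
EGFR 67.5 kb, chr7:55154117-55154143: ggcttttctgTGAGTCAattctttcct
EGFR 68.0 kb, chr7:55154517-55154543: ttcaaagccgTGAGTCAacctcaaatt
EGFR 114 kb, chr7:55200757-55200783: catcaaggagTGAGTCAcgggcctgaa
EGFR 137 kb, chr7:55224344-55224370: atttagggggTGAGTCAcaggttcagt
The motif at 137 kb begins at the second base after the exon that follows intron 8, over its splice donor. The exception was the site at 115 kb, which was among those narrower in siFra-1. Of the 4 narrower wide sites at EGFR 3 thus held the motif, as searched in the joined interval of both lists. At -22.8 kb it lay outside the narrower siFra-1 peak. At 68.0 kb, a site wider in siFra-1, it lay between the 2 siCTL peaks.

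AXL had 5 motifs in its 2 shared wide sites, 2 in the site at 4.50 kb and 3 in the site at 6.75 kb. They are shown because these 2 sites are the ones in the group with more than 1 AP-1 motif.
AXL 4.50 kb, first, chr19:41729597-41729623: cccagaggagTGACTCAggcccatggc
AXL 4.50 kb, second, chr19:41729653-41729679: ggatcgggcaTGAGTCAgcctggcagg
AXL 6.75 kb, first, chr19:41731598-41731624: tgtatatgtgTGAGTCAcggtgttttt
AXL 6.75 kb, second, chr19:41731797-41731823: tccctctatcTGACTCAgggcgtgccc
AXL 6.75 kb, last, chr19:41732087-41732113: gtgcccccggTGACTCAcgcgggggca
At EPHA2 3 of 7 wide sites held 1 motif each, among them the site of 1950 bp, and at CAV2-CAV1-MET 2 of 9 did (22.2%, 6.32 to 54.7).
EPHA2 10.2 kb, chr1:16472227-16472253: ggccaggagcTGAGTCAgggattccaa
EPHA2 17.0 kb, chr1:16465403-16465429: accaccacccTGACTCActggccagcc
EPHA2 -17.6 kb, chr1:16500142-16500168: cccagcctgcTGACTCAgcgcctgggg
CAV2 -228 kb, chr7:115912259-115912285: ggtttccttaTGAGTCAcagtgtggag
The 2 CAV2 sites with the motif both had a larger summed width in siFra-1, and the CAV1 promoter site had none. Motifs were searched in the joined interval of both lists, so a widened peak can bring one in. At the CAV2 site at -99.7 kb the motif lay outside the siCTL peak, in the part that only the siFra-1 peak covered. The TEAD letters were in 12 of 27 sites (44.4%) and in 43.2% of the other wide sites, a difference of 1.25 points (-15.6 to 19.5). The RUNX letters were also in 12 of 27 sites, against 39.0%, a difference of 5.47 points (-11.4 to 23.7), and both intervals include 0. The cAMP-responsive letters were in 0 of 27 sites, with a Wilson upper bound of 12.5%, and in 0.662% of all wide sites. The median GC content of the sites was 49.0%, against 46.6% over the series.

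**Figure D5:**
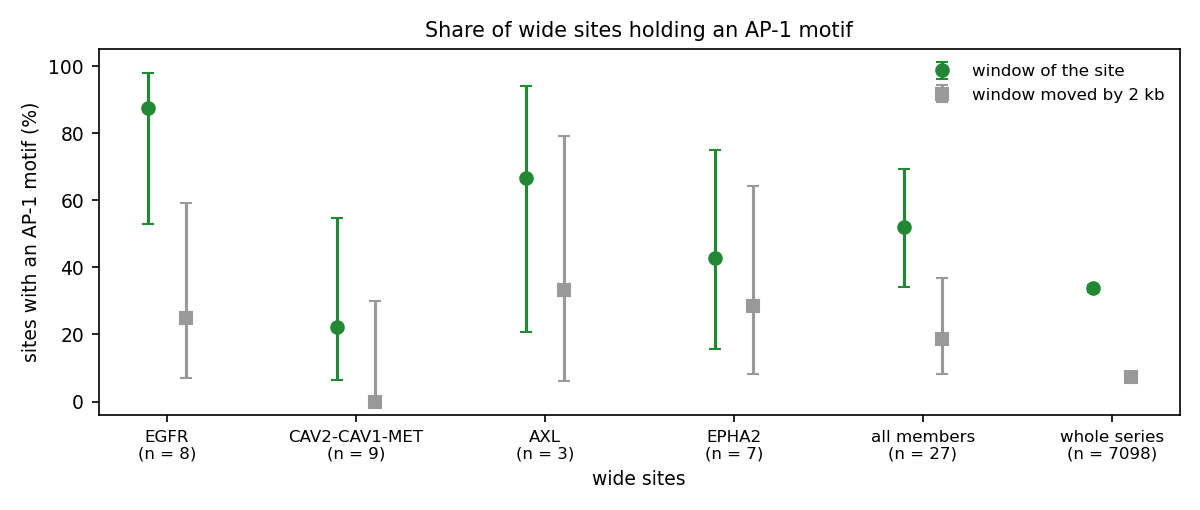
Share of wide sites with an AP-1 motif (y axis, %) at each locus, over all members and over the series (x axis), in the site itself (circles) and in the window moved by 2 kb (squares), with Wilson 95% intervals. EGFR with 87.5% (52.9 to 97.8) lies highest and CAV2-CAV1-MET with 22.2% (6.32 to 54.7) lowest. The slight overlap of these 2 intervals does not show that the loci are alike, and no interval of their difference was computed.

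Counted gene by gene, 5 of the 6 members had fewer siFra-1 than siCTL peaks, against 86.7% of the protein-coding genes with a peak. CAV2 with 14 siCTL and 15 siFra-1 peaks was the exception. All 5 members with a wide peak had more of them in siFra-1, against 50.2% of the genes with a wide peak. These windows share peaks at CAV1 and CAV2, so the 5 are not independent.

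Other genes of these pathways were counted by the same rule. Among 54 other receptor tyrosine kinases 46 had fewer siFra-1 peaks, and of the 21 with a wide peak 10 had more wide peaks in siFra-1, 9 as many and 2 fewer. IGF1R, the receptor of insulin-like growth factor, had 3 wide siCTL and 6 wide siFra-1 peaks, RYK, a Wnt receptor, 2 and 6, and ROR1, another Wnt receptor, 1 and 5. Among 15 ligands of the members 12 had fewer siFra-1 peaks, and of the 9 with a wide peak 6 had more wide ones in siFra-1, 2 as many and 1 fewer. GAS6, the ligand of AXL, had 3 and 6 wide peaks, the ephrin gene EFNA5 also 3 and 6, and EFNA2 4 and 4. All 7 caveola components had fewer siFra-1 peaks and at least 1 wide peak, with 3 having more, 1 as many and 3 fewer wide peaks in siFra-1. CAVIN1, which coats caveolae together with CAV1, had 3 and 5, and EHD2, which sits at their neck, 2 and 3. With 7 wide peaks in siCTL and 8 in siFra-1, EGFR exceeded all 76 of these genes in both lists. EPHA2 did so too, with 6 and 7 in a shorter window.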

How the data were processed

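The data were 2 lists of p300/CBP ChIP-seq peaks, 1 per condition, and the input sample was not analysed here. According to the methods, the authors pooled replicate immunoprecipitations before library preparation and aligned reads to hg19 with BWA-backtrack (the submitters' processing notes name Bowtie2). They then processed the reads with PASHA and took runs above a threshold of 25 as peaks in the Integrated Genome Browser. The signal was scaled and background-subtracted in bins of 50 bp, a step that the paper's methods do not give. Scaling and threshold thus move both number and width. A processing parameter of unstated meaning, AThr, was 79 for the siCTL and 130 for the siFra-1 library, so the lists may not have been made alike; its part in the differences was not tested. The deposited lists hold positions only, in bp, and no signal, so their unit is a coordinate and depth is unknown. All 84 siCTL and 57 siFra-1 member peaks entered, with no filter. The lists were read as BED and printed starts are 1-based. They are too large by 1 bp if the lists were already 1-based.

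Genes came from GENCODE lifted to GRCh37; all 6 members and 76 pathway genes matched, and no peak ended beyond its chromosome. Overlaps, sites and motifs were computed in Python 3.11.15 (numpy 2.4.6, pandas 2.3.3, scipy 1.17.1, matplotlib 3.10.9), tested on simulated data and against bedtools 2.31.1. Shares have Wilson, differences Newcombe, count ratios Clopper-Pearson and medians order-statistic 95% intervals. Peaks are not replicates, and no p-value is given. Wide sites and shared sites were named by position, and sequences by the widest shared and unshared peaks; some of these sequences are not reported here. The short stretches around AP-1 motifs were chosen after their positions were seen. Members and lists were chosen with earlier results of these data known. Alternatives were other windows, minimum widths, merging, overlap rules, motif windows and leaving out each locus.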

Additional observations from a re-analysis of the deposited data

How the results depend on the processing

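The ratio of peak numbers (0.679) depended on narrow peaks: it was 0.972 with peaks of at least 150 bp and 1.5 with peaks of at least 250 bp, where its direction was the opposite. The other 10 alternatives gave 0.538 to 0.768. The overlapped share of siCTL peaks was 63.9% and 100% with these minimum widths and 26.2% with an overlap of at least 50% of both peaks, and that of siFra-1 peaks was 63.0% from 250 bp on. The AP-1 share was 33.3% (18.6 to 52.2) in the central 200 bp. The same share was not computed for all wide sites, so whether the excess over the series holds there is unknown. All 12 alternatives of the wide peak ratio (1.19 to 1.73) and all 13 of the median width change (0 to 50 bp) stayed within the counting interval of the main value. The canonical transcripts as gene bounds were tried after the data were seen. No paired analysis was possible because each condition has 1 library. A peak that narrowly misses the threshold is not in its list, so an unshared peak does not show that signal was lacking.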

Other observations

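AP-1 motifs were also found in 8 of the 81 narrow member sites (9.88%, 5.09 to 18.3), and in 0 of the same windows moved by 2 kb, with a Wilson upper bound of 4.53%. The share over the narrow sites of the series was not computed, so this cannot be called particular to these loci. The wide sites of the whole series also held the motif more often (33.7%) than their moved windows (7.41%). Over the series, 1120 of 1880 shared wide sites with an AP-1 motif were wider in siFra-1 (59.6%, 57.3 to 61.8), and 1954 of 2763 without it (70.7%, 69.0 to 72.4). At the 6 genes these shares were 8 of 13 (61.5%, 35.5 to 82.3) and 5 of 8 (62.5%, 30.6 to 86.3), too few sites to show a gap of that size. The motif was searched in the joined interval of both lists, so its presence is not independent of the widths compared.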
